A study of Homo sapiens with 3 samples.

Results

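The circadian clock genes examined here were BMAL1, CLOCK, BHLHE41, PER1, PER2, PER3, CRY1, CRY2, NR1D1 and NR1D2, which belong to the feedback loops of the cell's daily timekeeper. They were selected by gene name, taking every probe set of the array that the platform annotation ties to exactly 1 symbol. Of the 10 genes, 8 had such a probe set, and these had 20 probe sets in all, among 19775 genes named in this way. PER1 (4 probe sets) and NR1D1 (3 probe sets) were represented solely by probe sets that carry another symbol as well, and they were not analysed here. All 8 genes had at least 1 probe set above the brightness floor explained below, 11 of the 20 probe sets being above it and 9 below.

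RNA was measured on Affymetrix arrays in MDA-MB-231, a line grown from a human breast carcinoma, of mesenchymal basal type and usually described as lacking estrogen receptor alpha. The cultures received tamoxifen at 1 µM, estradiol at 1 µM, or the vehicle (0.1% ethanol), each for 3 h. Before that all of them had spent 4 h in a medium whose 10% serum had been charcoal-stripped, which removes steroid hormones. Tamoxifen is a drug that blocks estrogen action in the breast, and estradiol is the body's principal estrogen. The labels give 1 array to each of the 3 groups, all of them of the same cell line, so the differences below come without an SD, an interval or a test. In RNA from a whole culture, a change in every cell and a change in the share of cells that express a gene cannot be told apart.

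In the clock, CLOCK and BMAL1 pair up and switch on genes that carry E-box sequences, among them the PER, CRY, NR1D and BHLHE41 genes. PER and CRY proteins return to the nucleus and block the pair, which closes a loop of about a day. A second loop runs through ROR elements, where NR1D proteins repress and ROR proteins activate BMAL1. BHLHE41, also called DEC2, binds E-boxes itself and represses clock targets. PER genes also respond quickly to outside signals, including serum and cyclic AMP, in cultured cells.

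The main pattern was that 3 of the 8 genes were at least 1.5-fold higher with tamoxifen than with vehicle, namely BHLHE41 (log2 difference 1.10), BMAL1 (0.98) and PER2 (0.61). Of all genes above the floor, 6.95% were that much higher. With estradiol BHLHE41 alone passed that size against vehicle (1.07), as did 5.77% of all genes upward. No clock gene was 1.5-fold lower in either comparison, where 4.30% of all genes were with tamoxifen and 2.63% with estradiol. No clock gene passed 1.5-fold between tamoxifen and estradiol, where CRY1 (0.51) and BMAL1 (0.44) lay highest. Of all genes 1.58% were higher and 2.20% lower there. The calls rest on 1 probe set for each of BHLHE41, BMAL1 and PER2, none of them in the brightest class explained below. With every probe set of a gene averaged, dim ones included, none of the 3 genes passed the rule with tamoxifen (0.38, 0.47 and 0.26). The probe sets behind the BHLHE41 and BMAL1 calls carry the suffix s_at, which marks probes that can match more than 1 transcript, and without that type neither gene has a probe set above the floor.

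The promoters of these 3 genes are shown because they carry the sequence classes through which the clock loops are wired. They come from RefSeq on GRCh38.p14, read 5′ to 3′ over 250 bases before the annotated start, and capitals mark the motif letters found. The 250 bases printed for BMAL1 hold none, so its 1 match, after the start, is given on a line of its own. The PER2 run goes on past the start to the end of a match that crosses it. All 10 clock genes matched the RefSeq promoter table, with 15 windows of 300 bases (250 before the start and 50 after).

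BHLHE41 (chr12:26125038-26125287, minus strand): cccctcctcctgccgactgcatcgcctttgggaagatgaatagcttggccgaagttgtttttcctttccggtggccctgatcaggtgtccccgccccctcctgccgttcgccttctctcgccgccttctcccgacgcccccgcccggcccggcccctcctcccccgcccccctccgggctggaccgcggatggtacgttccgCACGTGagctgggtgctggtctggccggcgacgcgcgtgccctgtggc

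PER2 (chr2:238288606-238288860, minus strand): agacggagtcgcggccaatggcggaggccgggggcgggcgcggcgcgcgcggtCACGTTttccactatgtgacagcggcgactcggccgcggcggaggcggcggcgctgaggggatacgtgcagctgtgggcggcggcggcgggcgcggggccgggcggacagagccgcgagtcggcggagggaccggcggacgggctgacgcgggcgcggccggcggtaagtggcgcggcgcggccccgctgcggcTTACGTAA

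BMAL1 (chr11:13277540-13277789, plus strand): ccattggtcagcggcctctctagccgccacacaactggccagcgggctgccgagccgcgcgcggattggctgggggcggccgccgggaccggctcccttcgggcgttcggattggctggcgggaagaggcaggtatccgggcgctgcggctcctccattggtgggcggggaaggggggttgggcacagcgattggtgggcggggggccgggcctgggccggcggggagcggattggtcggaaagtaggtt

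BMAL1 site just after the start (chr11:13277809-13277838, plus strand): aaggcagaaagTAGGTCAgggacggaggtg

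Letters were searched on both strands: the E-box CACGTG, the weaker E-prime box CACGTT, the ROR element core TAGGTCA, the D-box TTANGTAA (bound by DBP, TEF, HLF and NFIL3) and the cyclic AMP response element core TGACGT. Over all 35116 windows of the table, 7.26% held the E-box, 5.34% the E-prime box, 1.85% the ROR core, 2.18% the D-box and 7.98% the cyclic AMP core. The BHLHE41 window held 1 E-box, 48 bases before the start. The PER2 window held an E-prime box 197 bases before the start and a D-box whose first base lies 3 bases before it. The BMAL1 window printed here held a ROR core beginning at base 31 of the transcript, with no other match. Another annotated start of BMAL1 has a window that held none of the letters.

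Of the clock genes that did not pass the size rule, NR1D2 had the most matches. One of its 2 windows held E-boxes at 155 and 105 bases before the start, a D-box at 194 and the cyclic AMP core at 16, and the other window held none. PER3 had a D-box (177 bases before the start), CRY1 an E-prime box (89), CLOCK an E-prime box (187), and CRY2 an E-prime box (188) together with a ROR core (65). PER3, CLOCK and CRY2 each had another window, which held none. PER1, which was not measured here, held an E-box at 173, and NR1D1 an E-prime box at 168. A match describes these letters in these windows and does not show that a factor bound there.

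**Figure D1:**
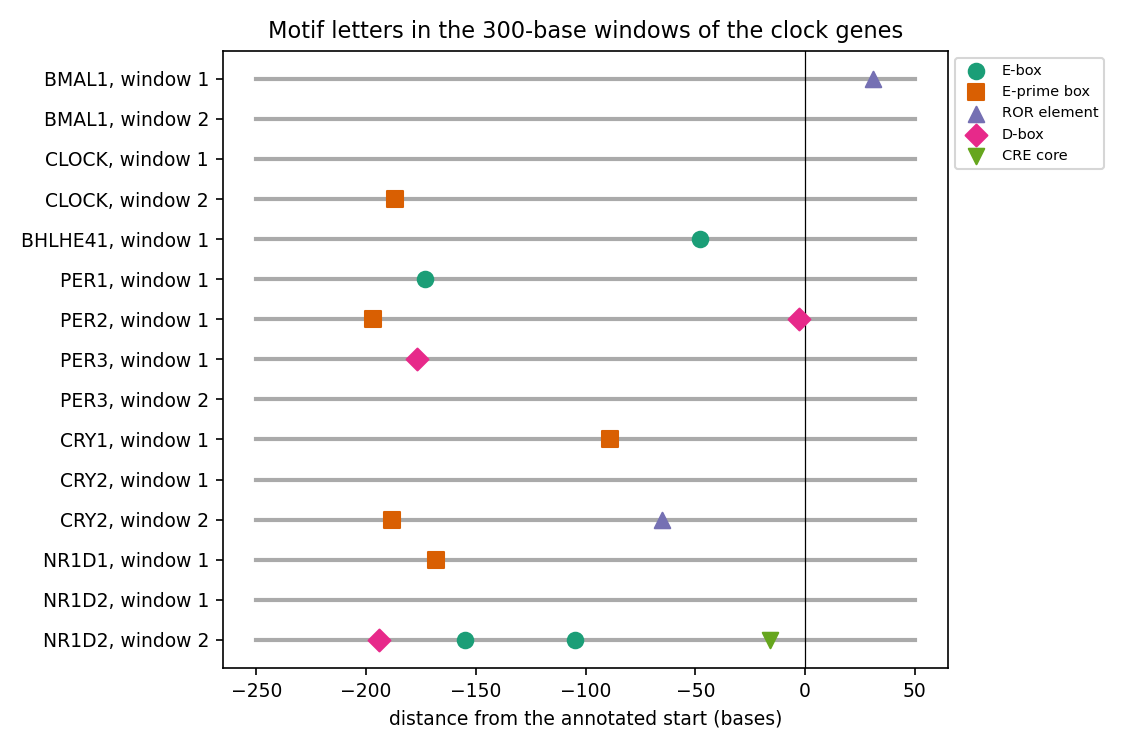
Motif letters in the 15 RefSeq promoter windows of the 10 clock genes, by distance from the annotated start in bases, with grey lines for the windows and a symbol for each motif class. E-box or E-prime letters stand in windows of 8 genes, and ROR core letters in those of BMAL1 and CRY2.

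The deposited log2 values are not expression levels: each probe set is centred on a baseline that is not stated, so a value of 0 says nothing of how much RNA was present and genes cannot be ranked by level. Base 2 was taken from the named normalisation (RMA), and higher values were taken to mean more RNA. Differences between columns of 1 probe set are the measurements given. Brightness was instead inferred from how coarsely each number is stored, since a brighter single-precision value is stored in coarser steps. Probe sets in the steps of levels from 4 to 8 or from 8 to 16 (log2) were counted as above the floor, and the value of a gene is the mean of its probe sets in its brightest class. A probe set can appear 1 class too bright when its last digits happen to be 0.

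The vehicle values had a smaller spread than the others, with an SD over 12165 named genes above the floor of 0.20, against 0.49 for tamoxifen and 0.48 for estradiol. Because of this gap, an alternative reading of the differences from vehicle was made by doubling the vehicle column. That factor was assumed and does not follow from the SDs, and the cause of the smaller spread was not tested. The poly-A spikes, foreign transcripts put into each RNA sample ahead of labelling, exceeded vehicle by a median of 0.87 with tamoxifen and 1.04 with estradiol (24 probe sets), or by 0.39 and 0.47 on doubling the vehicle. The hybridisation spikes differed by 0.10 and 0.18 over 18 probe sets, or by 0.23 and 0.32 on doubling the vehicle. For ACTB, the gap between the 5′ and 3′ control probe sets was -0.67 on the tamoxifen array, 0.28 on the estradiol array and 0.23 in the vehicle values, while for GAPDH it was -0.07, 0.04 and 0.09. The part of these array differences in the clock gene values was not tested. The reference genes GAPDH and ACTB themselves differed from vehicle by -0.15 and -0.14 with tamoxifen and by -0.07 and -0.05 with estradiol. All 5 markers of the line (VIM, CD44, CAV1, AXL and MSN) were above the floor in the brightest class. Among 6 epithelial or luminal genes, CDH1, PGR and FOXA1 were below the floor, and EPCAM, GATA3 and 1 of 9 ESR1 probe sets were above it, EPCAM and GATA3 in the brightest class. Among markers of other cells, 1 of 5 PTPRC probe sets and 3 of 5 PECAM1 probe sets were above it, none in the brightest class, and CD3E and CDH5 were below.

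Of the activators, BMAL1 encodes the partner that gives the pair its rhythm in most tissues. Its probe set above the floor (209824_s_at) was in the 4 to 8 class. It stood at 0.79 on the tamoxifen array, 0.35 on the estradiol array and -0.19 in the vehicle values. Tamoxifen was highest, 1.97-fold higher than vehicle (0.98) and 1.36-fold higher than estradiol (0.44, under the size rule). Estradiol was 1.45-fold higher than vehicle (0.54), just under the size rule, and passed it with the vehicle doubled (0.73; tamoxifen 1.17). Of the 12165 genes, 1.27% had a larger tamoxifen minus vehicle difference. The other BMAL1 probe set (210971_s_at), in the 2 to 4 class, stood at 0.07, 0.15 and 0.10, so that tamoxifen differed from vehicle by -0.03.

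CLOCK, the partner of BMAL1 and a histone acetyltransferase, had 4 probe sets, which did not go the same way. Of those in the brightest class, 225856_at stood at 0.49 with tamoxifen, -0.06 with estradiol and -0.04 with vehicle, so that tamoxifen was high by itself. The other, 227531_at, stood at 0.24, 0.29 and -0.08, with both ligands above vehicle. Probe set 204980_at, also above the floor, stood at -0.13, -0.03 and -0.02, and 217563_at, below it, at 0.18, 0.39 and -0.17. The mean of the brightest pair differed from vehicle by 0.43 with tamoxifen and 0.17 with estradiol, neither past 1.5-fold, and tamoxifen differed from estradiol by 0.25. With all 3 probe sets above the floor averaged, an alternative chosen after the data were seen, these were 0.25, 0.11 and 0.13.

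BHLHE41, the E-box repressor, had the largest difference from vehicle of the 8 genes with both ligands. Its probe set above the floor (221530_s_at) was in the 4 to 8 class. It stood at 0.997 with tamoxifen, 0.96 with estradiol and -0.11 with vehicle. Both ligand arrays lay far above the vehicle value and within 0.04 of each other, which gave 2.15-fold with tamoxifen (1.10) and 2.10-fold with estradiol (1.07). Of all genes above the floor, 0.781% had a larger difference with tamoxifen and 0.880% with estradiol. On doubling the vehicle the differences were 1.21 and 1.17. The 2 comparisons share the vehicle value, so they are not separate evidence of the direction. The other 3 probe sets of the gene lay below the floor, and their differences from vehicle ran from 0.04 to 0.25 with tamoxifen and from -0.28 to 0.56 with estradiol. None of the 3 reached 1.5-fold in either comparison.

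Among the PER genes, which encode the repressors that outside signals induce first, PER2 was higher with tamoxifen. Its probe set above the floor (205251_at) was in the 4 to 8 class. It stood at 0.15 with tamoxifen, -0.13 with estradiol and -0.46 with vehicle. The vehicle value lay further below the baseline of its own probe set than any other clock value did, which does not rank RNA levels. The 3 columns were spread at similar gaps. Tamoxifen was 1.52-fold above vehicle (0.61) and 1.21-fold above estradiol (0.28). Estradiol was 1.25-fold above vehicle (0.33). Doubling the vehicle gave differences of 1.06 and 0.78, while with the column medians subtracted the tamoxifen difference was 0.58, just short of 1.5-fold. The second PER2 probe set (208518_s_at), in the 2 to 4 class, stood at -0.01, 0.00 and 0.08.

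PER3 had 4 probe sets, of which 221045_s_at lay above the floor at 0.16 with tamoxifen, -0.02 with estradiol and -0.16 with vehicle. Its columns had the same order as those of PER2, with smaller gaps: 0.32 for tamoxifen minus vehicle, 0.14 for estradiol minus vehicle and 0.18 for tamoxifen minus estradiol. The 3 dim probe sets of PER3 ran from -0.24 to 0.31 for tamoxifen minus vehicle and from -0.44 to 0.50 for tamoxifen minus estradiol.

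The cryptochromes, which bind and silence the CLOCK and BMAL1 pair, each had 1 probe set and went different ways. CRY1 (209674_at), in the brightest class, stood at 0.19 with tamoxifen, -0.33 with estradiol and -0.06 with vehicle. It was the clock gene with the largest gap between the ligands, 1.43-fold higher with tamoxifen than with estradiol (0.51), a difference exceeded by 2.79% of genes. Against vehicle the differences were 0.25 with tamoxifen and -0.27 with estradiol, on opposite sides and each within 1.5-fold. CRY2 (212695_at) stood at -0.33 with tamoxifen, -0.18 with estradiol and -0.01 with vehicle, the lowest tamoxifen minus vehicle difference of the 8 genes (-0.33). It was also the one clock gene whose value was lower with tamoxifen than with estradiol (-0.15).

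NR1D2, also called REV-ERB beta, is a heme-binding nuclear receptor that represses BMAL1. Its brightest probe set (225768_at) stood at -0.03 with tamoxifen, -0.22 with estradiol and 0.12 with vehicle, both ligands lying below vehicle by 0.15 and 0.34. The second (209750_at), also above the floor, stood at 0.18, 0.05 and -0.05, with both ligands above vehicle. Averaging both gave 0.04 for tamoxifen minus vehicle and -0.12 for estradiol minus vehicle.

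**Figure D2:**
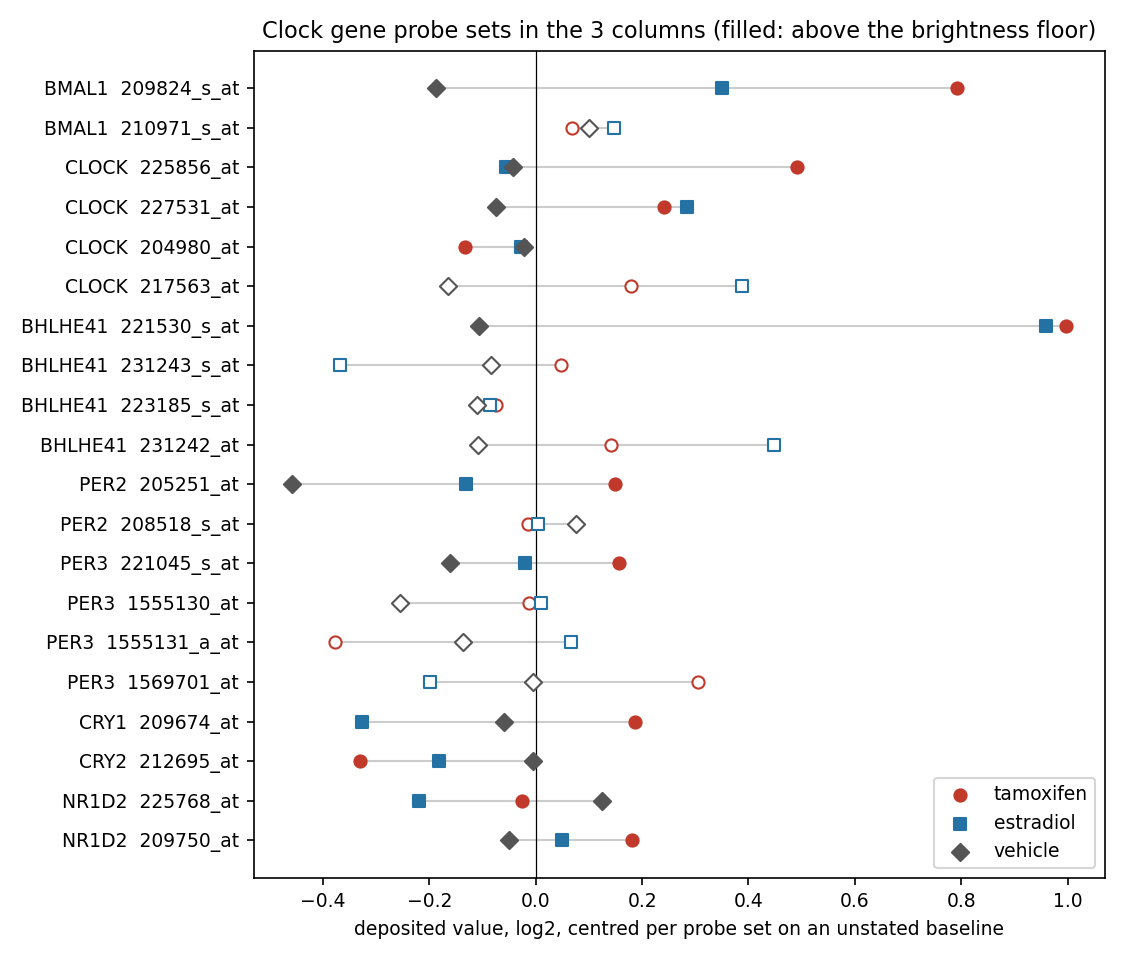
Deposited log2 values, centred per probe set, of the 20 clock gene probe sets (rows) on the tamoxifen (circles), estradiol (squares) and vehicle (diamonds) arrays, with filled symbols for the 11 probe sets above the brightness floor. The probe sets of BMAL1, BHLHE41 and PER2 above the floor, all in the 4 to 8 class, separate the ligands from vehicle. None of the dim probe sets of these genes differs from vehicle by 1.5-fold.

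Counted together, 3 of the 8 clock genes were at least 1.5-fold higher with tamoxifen than with vehicle (37.5%), where 6.95% of all genes above the floor were, and 0 of 8 were lower, where 4.30% were. One of them, BHLHE41, passed 2-fold, as did 1.22% of all genes upward and 0.469% downward. The median difference over the 8 was 0.37 and that over all genes 0.02, and 6 of the 8 were above 0, where 52.2% of all genes were. Doubling the vehicle left 3 higher and 0 lower, beside 7.14% and 3.65% of all genes. The 8 genes were listed with earlier results of these data known, so the excess over the background is a description.

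With estradiol, 1 of 8 clock genes was 1.5-fold above vehicle, where 5.77% of all genes were, and 0 were below, where 2.63% were. The gene, BHLHE41, also passed 2-fold, as did 1.09% of all genes upward and 0.230% downward. The median over the 8 was 0.16, against 0.02 over all genes, and 5 of 8 were above 0 (62.5%), where 53.3% of all genes were. Doubling the vehicle gave 3 higher (BHLHE41, PER2 and BMAL1) and 0 lower, beside 4.37% and 1.94% of all genes, so the estradiol count depends on how the vehicle column is read. With every probe set of a gene averaged, BHLHE41 stood at 0.34 and no clock gene passed.

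Tamoxifen against estradiol needs no vehicle value. In this comparison 0 of 8 genes passed 1.5-fold in either direction, where 1.58% of all genes were higher and 2.20% lower (0.0822% and 0.238% at 2-fold). Of the 8 genes, 7 were nonetheless above 0 (87.5%), with CRY2 the exception, where 46.7% of all genes were. Their median was 0.22, against -0.02 over all genes, and it was 0.17 with all probe sets above the floor averaged and 0.092 with the dim ones averaged in. Over single probe sets, 8 of the 11 above the floor and 3 of the 9 below it were higher with tamoxifen than with estradiol, where 48.2% and 50.6% of all named probe sets above and below the floor were.

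**Figure D3:**
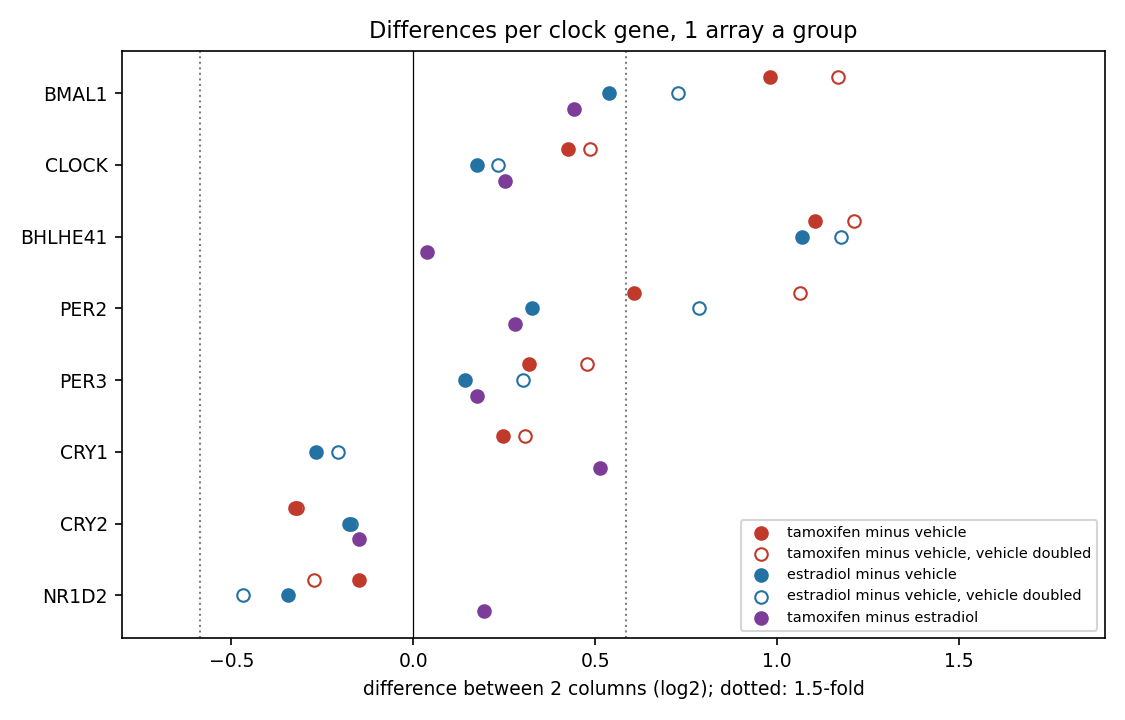
Log2 differences of the 8 clock genes for tamoxifen minus vehicle, estradiol minus vehicle and tamoxifen minus estradiol, with open symbols for the vehicle value doubled and dotted lines at 1.5-fold. BHLHE41 lies near 1.1 with both ligands, and BMAL1 and PER2 lie past the line with tamoxifen.

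**Figure D4:**
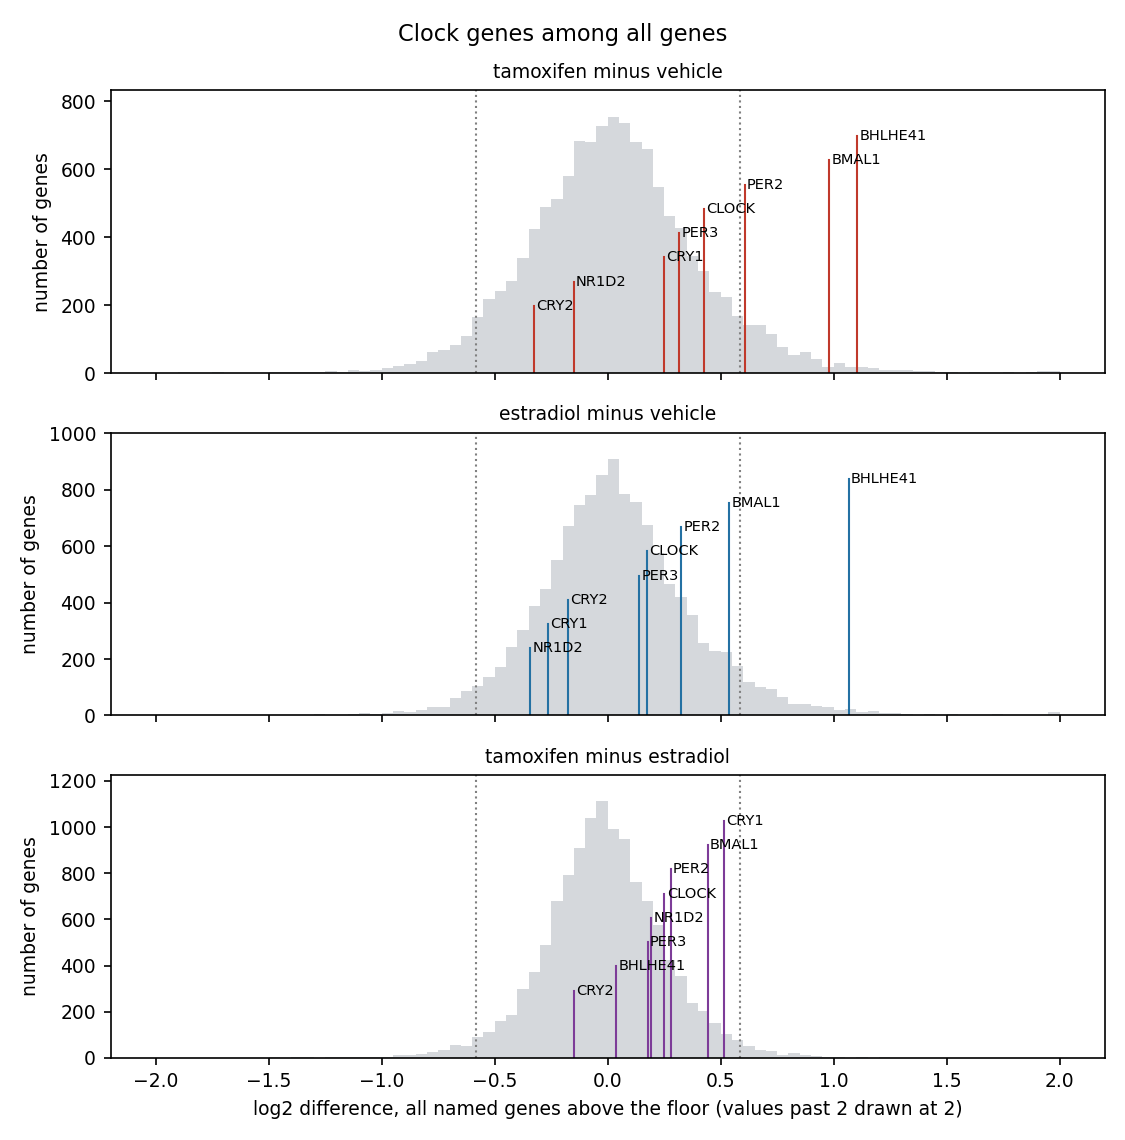
Histograms of the log2 differences of 12165 named genes above the floor in the 3 comparisons, with vertical lines for the 8 clock genes and dotted lines at 1.5-fold; values past 2 in size are drawn at 2. The clock genes lie toward the right of the tamoxifen minus estradiol histogram, between -0.15 and 0.51, without passing 1.5-fold.

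For scale, 2 probe sets of 1 gene that both lay above the floor differed from each other by a median of 0.25 in the tamoxifen minus vehicle difference, over 3214 genes with exactly 2 such probe sets, and in 13.8% of these genes by 1.5-fold or more. For tamoxifen minus estradiol the median gap was 0.21. Against the 90th percentile of the tamoxifen minus vehicle gaps (0.67), the differences of BHLHE41 and BMAL1 were larger, and those of PER2 and the other 5 clock genes were not. BHLHE41 and BMAL1 each have only 1 probe set above the floor, so the scale does not measure their own disagreement. Their dim probe sets lay far from those used, at 0.04 to 0.25 for BHLHE41 and -0.03 for BMAL1. This scale covers disagreement between probe sets and not the spread between cultures.

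Of 40 other genes of the clock pathway analysed here, 35 lay above the floor. Against vehicle, 4 of the 35 were 1.5-fold higher with tamoxifen (11.4%) and 0 were lower, where 6.95% of all genes were higher and 4.30% lower. With estradiol 2 of the 35 were higher (5.71%) and 0 lower, where 5.77% of all genes were higher and 2.63% lower, so the share higher was that of the background. Their medians were 0.04 and 0.05, close to those of all genes. Between the ligands 1 was higher with tamoxifen (2.86%) and 0 lower, where 1.58% of all genes were higher and 2.20% lower, and the median was -0.04. Doubling the vehicle gave 3 higher with tamoxifen (SIRT1, PPARA and SIK1) and 3 with estradiol (BHLHE40, SIK1 and NAMPT), so some of the genes past the rule depend on how the vehicle column is read.

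The genes past the size rule included a close relative of BHLHE41 and factors that act on the clock proteins. BHLHE40, also called DEC1, stood at 0.76 with tamoxifen, 1.02 with estradiol and 0.16 with vehicle, higher than vehicle by 0.60 and 0.86. These were 0.44 and 0.70 on doubling the vehicle, where the tamoxifen one no longer passed. The other BHLHE40 probe set, below the floor, differed from vehicle by -0.09 with tamoxifen and 0.22 with estradiol. PPARGC1A, the coactivator PGC-1 alpha that works with ROR proteins on BMAL1, stood at 1.21, 0.37 and 0.32, so that tamoxifen alone was high, by 0.89 over vehicle and 0.84 over estradiol. Doubling the vehicle brought the first to 0.58, just within 1.5-fold. In the other PPARGC1A probe set, below the floor, tamoxifen differed by -0.30 from vehicle and -0.25 from estradiol. SIRT1, a deacetylase that acts on BMAL1 and PER2, stood at 0.77, 0.25 and -0.08, higher than vehicle by 0.85 with tamoxifen and 0.33 with estradiol.

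NFIL3, a repressor that binds D-boxes, stood at 0.65 with tamoxifen, 0.60 with estradiol and 0.06 with vehicle, and passed the rule narrowly with tamoxifen (0.59; estradiol 0.55; 0.54 and 0.49 on doubling the vehicle). Its counterpart DBP, an activator at the same sites and a direct CLOCK target, differed from vehicle by -0.19 and -0.47. NAMPT, which makes a precursor of the NAD that SIRT1 uses, stood at 0.71 with tamoxifen, 0.88 with estradiol and 0.14 with vehicle in its brightest probe set, higher than vehicle by 0.57 and 0.73. Its 3 other probe sets above the floor ran from -0.29 to 1.15 with tamoxifen and from -0.21 to 1.75 with estradiol.

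The kinases that phosphorylate clock proteins stayed within 1.5-fold of vehicle, 7 of 7 lying between -0.46 (CSNK1E) and 0.17 (GSK3B) with tamoxifen. So did the 3 ubiquitin ligase genes above the floor, between -0.21 and 0.27, and the 5 genes of the cyclic AMP and CREB input, between -0.20 and 0.49 (SIK1). Most genes did the same: of all genes above the floor, 6.95% were 1.5-fold higher with tamoxifen and 4.30% lower. On doubling the vehicle, SIK1 passed the rule with both ligands (0.66 and 0.69). The other SIK1 probe set above the floor, in the 4 to 8 class, went the other way. It differed from vehicle, not doubled, by -0.29 with tamoxifen and -0.25 with estradiol. TIMELESS, whose human protein works chiefly in DNA replication, differed by -0.51 with tamoxifen and -0.37 with estradiol, but by 0.24 and 0.38 with the vehicle doubled, so its direction depends on that reading. Among output genes of the clock, PPARA, a fatty acid sensing receptor, differed from vehicle by 0.57 and 0.24, close to the size rule with tamoxifen and past it on doubling the vehicle (0.69), while WEE1, a cell cycle kinase, differed by 0.20 and 0.04. RORA, RORB, CIART, HLF and FBXL21P were below the floor. NPAS2, which can replace CLOCK, is named because its probe sets disagree, as do those of SIK1, GSK3B, CSNK1A1, CREB1 and WDR5. The pair in its brightest class differed from vehicle by -0.09 and 0.16 with tamoxifen, and the 3 in the 4 to 8 class by 0.35, 0.67 and 0.73. The 3 probe sets averaged for GSK3B differed from vehicle by -0.58, 0.49 and 0.61 with tamoxifen, the last of them past the rule. For CSNK1A1, a pair of probe sets in the 4 to 8 class differed by -0.81 and 0.60 with estradiol. CREB1, a cyclic AMP responsive activator, was at 0.04 with tamoxifen in its brightest class, while its 6 probe sets in the 4 to 8 class ran from -0.43 to 0.73. Of the pair averaged for WDR5, 1 differed from vehicle by -0.79 with tamoxifen and -0.75 with estradiol, past the rule. The other differed by -0.20 and 0.01, and the mean of the pair did not pass.

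**Figure D5:**
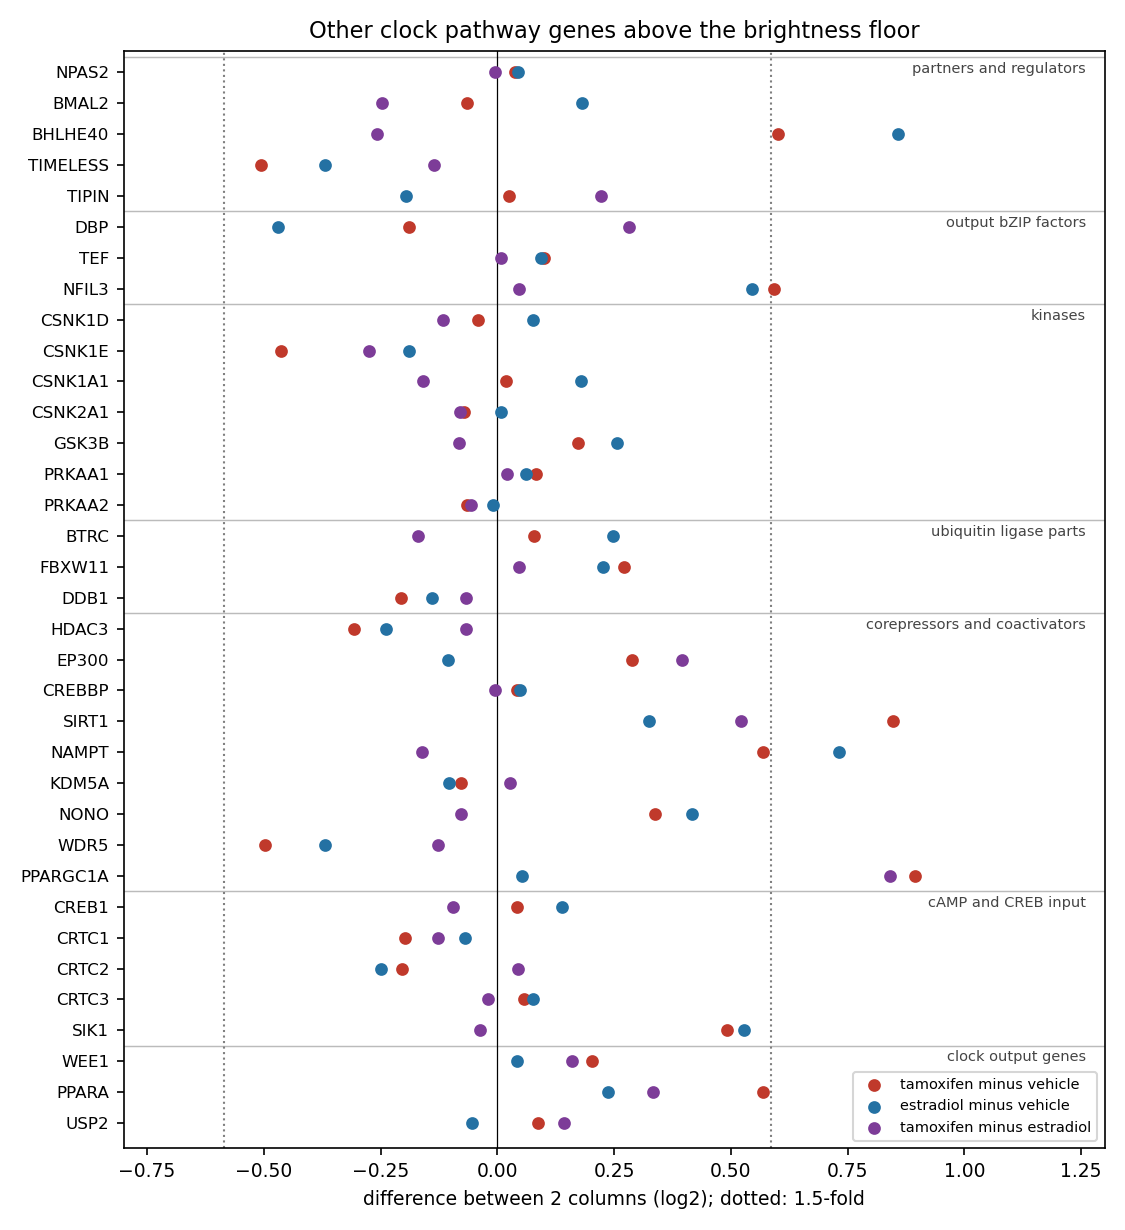
Log2 differences of the 35 other clock pathway genes above the floor, grouped by role, for tamoxifen minus vehicle, estradiol minus vehicle and tamoxifen minus estradiol, with dotted lines at 1.5-fold. PPARGC1A and SIRT1 lie furthest right with tamoxifen, and BHLHE40 with estradiol.

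The genes whose pair of differences from vehicle lay nearest to each clock gene past the size rule were found by Euclidean distance over estradiol minus vehicle and tamoxifen minus vehicle. Nearest to BHLHE41 were TPD52 (1.12 with tamoxifen and 1.06 with estradiol), APOOL (1.08 and 1.03) and TGFA (1.06 and 1.08). Nearest to BMAL1 were CCNJ (0.97 and 0.53), CLMP (0.99 and 0.55) and PTPRU (0.99 and 0.52). Nearest to PER2 were SLC35F2 (0.61 and 0.32), TRAF3IP1 (0.61 and 0.32) and TAPT1 (0.60 and 0.31). Likeness over 3 columns is a description of these arrays.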

How the data were processed

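The deposited file holds 54675 probe sets in 3 columns of log2 values, made by the authors with RMA (per the submitters' processing notes, version not given in the sources used here), on a scale centred per probe set on an unstated baseline. Probe sets were named through the platform annotation: 41091 had 1 symbol, 1801 had several, 11721 had none and 62 were controls. 0 symbols needed updating from RefSeq. Brightness classes were read from binary steps. In 5015 probe sets a value near 0 had been cut short by decimal rounding, and that value was left out of the step. A floor on log2 levels could not be applied to centred values. No test was run, because each group has 1 array: genes were counted at 1.5-fold. The named genes are all 10 clock genes, the pathway genes past 1.5-fold, the 3 nearest genes of each clock gene past it, and GAPDH and ACTB, beside a list of cell type markers and the pathway genes below the floor, which are named without values. DBP, CSNK1E, CSNK1A1, GSK3B, CREB1, SIK1, TIMELESS, PPARA, WEE1, NPAS2 and WDR5 were named after their values were seen. The members and lists were chosen with earlier results of these data known. The scripts were tested on simulated data. Python 3.11.15, numpy 2.4.6, pandas 2.3.3 and matplotlib 3.10.9 were used. The number of arrays limits the precision.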

Additional observations from a re-analysis of the deposited data

How the results depend on the processing

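No paired analysis was possible because each group has 1 array. A count was taken as moved when it differed by over 1.5 times, and a median when it shifted by over 0.1. With no floor, and with all probe sets above the floor averaged (chosen after the data were seen), no count or median of the clock genes or of the other pathway genes moved, and no clock gene changed its side of the size rule. With the vehicle doubled, the clock gene medians were 0.48 (tamoxifen) and 0.27 (estradiol), 3 genes passed with estradiol, and BMAL1 (0.73) and PER2 (0.78) were among them. Of all genes 4.37% were then higher with estradiol. With all probe sets of a gene averaged, 0 clock genes passed with either ligand (BHLHE41 0.38 and 0.34, BMAL1 0.47 and PER2 0.26 with tamoxifen), and the medians were 0.25 for tamoxifen minus vehicle and 0.092 for tamoxifen minus estradiol. Of the other pathway genes 2 then passed with tamoxifen, 1 with estradiol and 0 between the ligands. In the same order of comparisons, 4.52%, 4.09% and 0.814% of all genes were then higher, and 3.20%, 1.77% and 1.51% lower. Without the cross-reacting probe set types, which leaves 5 clock genes and neither BMAL1 nor BHLHE41, 1 passed with tamoxifen (median 0.25) and 0 with estradiol (median -0.18). Of the other pathway genes 2 were then higher and 1 lower (WDR5) with tamoxifen, and 0 higher and 1 lower (WDR5) with estradiol. Of all genes 7.40% were then higher and 4.70% lower with tamoxifen, and 5.68% higher and 2.81% lower with estradiol. With the floor at the brightest class, 3 clock genes were left (CLOCK, CRY1 and NR1D2), 0 passed with either ligand, the medians were 0.25 and -0.27, and 1 other pathway gene passed with tamoxifen and 0 between the ligands. Of all genes at that floor 6.51% were higher with tamoxifen, 4.93% with estradiol and 1.09% between the ligands. With column medians subtracted, PER2 stood at 0.58 with tamoxifen and 2 other pathway genes passed, where 6.35% of all genes were higher. At 2-fold, 1 clock gene (BHLHE41) passed with tamoxifen, BMAL1 (0.98) and PER2 (0.61) did not, and 0 other pathway genes passed in any comparison. Of all genes 1.22% were that much higher with tamoxifen, 1.09% with estradiol and 0.0822% between the ligands. In the direct comparison of the ligands no clock gene passed 1.5-fold under any of these alternatives. Few genes did so at all: in the main analysis 1.58% of all genes were higher there and 2.20% lower. The cause of these shifts was not tested, beyond the fewer genes or added dim probe sets that the alternatives themselves bring.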
